A study of Mus musculus with 6 samples.

Results

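The Hox genes of the 4 mouse clusters were followed in mouse embryonic fibroblasts with and without Rap1, the telomere protein encoded by Terf2ip. Of 38 Hox genes listed by cluster and paralogue number, 36 had a probe annotated by RefSeq accession on the array. Each gene was read by its probe of highest mean signal, chosen from 45 Hox probes. Of these 36, 27 passed the filter on dim probes and entered the comparison, among 19647 features kept of 33269. Hoxc6 and Hoxc11 were not analysed here.

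RNA came from 3 arrays labelled wild type and 3 labelled Rap1 knock-out, all from cells infected with the large T antigen of SV40 and with Cre recombinase and grown in puromycin. Cre removes the floxed exon 3 of the targeted gene, whose allele was made in 129Sv/Pas embryonic stem cells and carried in mice bred to C57BL/6J. The labels give neither the embryos' age nor the part of the embryo the fibroblasts were taken from. Nor do they state if the replicates are different embryos or separate dishes. The p-values therefore cover the spread among these arrays, which may be technical. All samples carry large T antigen, so cells without it were not measured.

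Hox genes encode homeodomain transcription factors that give cells a position along the head-to-tail axis and, in limbs, from shoulder to digits. They lie in 4 clusters, A to D, in an order that matches where and when they are used, low paralogue numbers toward the head and high numbers toward the tail or the limb tip. Fibroblasts keep much of this code in culture, so that fibroblasts of different body sites carry different Hox patterns.

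Hox proteins often bind DNA together with Pbx proteins, and posterior Hox and Cdx proteins share an AT-rich site, which is why the following stretches of Hox promoters are shown. The motifs TGATNNAT (Hox with Pbx) and TTTATNG (Cdx and posterior Hox) and the DR5 site of retinoic acid receptors were sought on both strands in RefSeq promoter windows of 300 bases, which begin 250 bases before the start of transcription (build GRCm38.p6). Windows were found for 22 of the member genes, 24 windows in all. The Hox-Pbx motif was in 4 of the 24, in Hoxa2, Hoxb1, Hoxb8 and Hoxd11, and in 8.85% of 32851 promoters. TTTATNG was in 2 of the 24, in Hoxb8 and Hoxd4, and in 10.91% of promoters. The DR5 site was in 0 of the 24 and in 0.01% of promoters. Capitals mark the match, read along the gene's strand, and no match in a Hox window overlapped one of another motif. For Hoxd4 the TTTATNG match farthest upstream is shown. The stretch of Hoxa2 lies at chr6:52164924-52164953 (minus strand), that of Hoxd11 at chr2:74682239-74682268, of Hoxb8 at chr11:96281883-96281912 and of Hoxd4 at chr2:74721922-74721951 (all 3 on the plus strand). These matches are a description of the letters only.
Hoxa2: gacttttttggATCAATCAaacagacagtg
Hoxd11: ttaccaccagaATCAATCAagatgaattgc
Hoxb8: ataataaggaaATTGATCAttaaagcttta
Hoxd4: gccaaaggttaTTTATGGttctgcagagcc

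Levels below are log2 of the processed signal minus the array's 75th percentile of it, so 0 is the 75th percentile and 1 unit is a 2-fold change. A level is compared between arrays for 1 probe, never between genes. Between 61.7% and 67.1% of probes per array were well above background. Terf2ip, the targeted gene, read −1.74 ± 0.08 (SD, n = 3) in wild type and −8.37 ± 0.63 (SD, n = 3) in knockout cells, where it was not well above background on any array, and was at least 38.3-fold lower (limma adjusted p = 0.00792). Its limma adjusted p ran from 0.00359 to 0.177 over the alternatives. Wild-type arrays 2 and 3 were nearly alike: the SD of their log2 difference was 0.25, against 0.83 to 1.25 for the other pairs. They may stand for 1 sample, and the counts are also given with both averaged. Fibroblast markers were well above background on all 6 arrays for 13 of 14 genes, and their summed level (log2) ran from 9.32 to 9.45 in wild type and from 8.47 to 9.26 in knockout. Of the 14, 4 were lower on every knockout array (Thy1, Pdgfra, Fn1 and P4ha1), against 5.88% of features, and the median difference was −0.79. The summed level hid wide spans of single markers. A range over the 6 arrays of at least 4 log2 units was reached by 4 of the 14, against 4.29% of kept features. On knockout array 1 Dcn read −5.47, against 2.19 to 5.79 on the others, and Lum was not well above background. The summed level of 9 epithelial markers ran from 1.88 to 2.55 in wild type and from 2.24 to 3.75 in knockout. The part of these markers in the Hox values was not tested. Some listed markers of other cell types were not well above background on any array. These were Pecam1, Cdh5, Tie1 and Emcn (endothelium), Ptprc, Adgre1 and Itgam (blood), and Myod1, Myog and Myf5 (muscle). Esrp1 and Cldn4 (epithelium), Gfap (neural), Matn1 (cartilage) and Zfp42 and Tdgf1 (pluripotent cells) were dim likewise. Other genes of these lists with a probe were well above background on all 6 arrays. They were 2 of 8 endothelial (Kdr and Vwf), 3 of 8 blood (Cd14, Lyz2 and Hba-a1) and 1 of 6 muscle genes (Acta1). Among epithelial genes they were 6 of 9 (Epcam and 5 keratins). They also included 5 of 8 neural, 5 of 7 cartilage and 2 of 6 pluripotent genes. Cdh1 (epithelium) was well above background only on wild-type array 1 and knockout arrays 1 and 3.

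The knockout was compared with wild type to see which transcripts depend on Rap1. No Hox gene passed: 0 of 27 had a limma adjusted p under 0.05, against 2 of 19647 features (0.0102%), and 1 had an unadjusted p under 0.05, against 10.3% of features. With wild-type arrays 2 and 3 averaged, limma also called 0 of 27. The difference was above 0 for 14 members and below 0 for 13. Their median log2 difference was 0.09, close to the 0.07 of all features. The smallest limma adjusted p was 0.486. Among the features 17.2% had groups that did not overlap, and this held for 1 of the 27 Hox genes, Hoxa10. Separation with a difference of at least 2-fold was seen for 4.3% of features and 0 of the 27. The median standard error of a Hox gene was 1.30 log2 units, against 0.31 for all features.

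**Figure D1:**
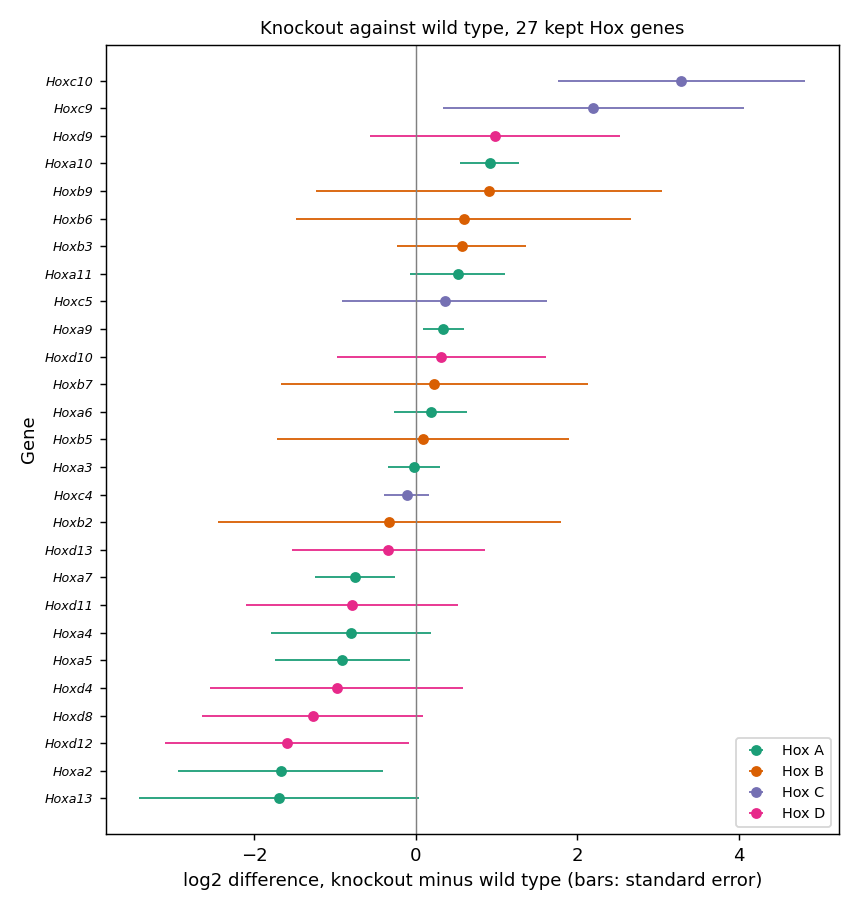
Log2 difference between knockout and wild type (x axis) for the 27 kept Hox genes (y axis), coloured by cluster, with bars for the limma standard error. Values run from −1.70 for Hoxa13 to 3.29 for Hoxc10, and 0 of 27 passed the threshold.

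What the arrays did show was a Hox pattern that differed from array to array within each group. To measure it without the filter's choice of genes, the range over the 6 arrays was taken for features well above background on all 6. Among 22 such Hox genes the median range was 4.01 log2 units, a 16.1-fold span, against 1.06, or 2.08-fold, among 18114 such features. A range of at least 4 log2 units was reached by 11 of the 22 (50%), against 2.46% of those features. After normexp correction with quantile normalisation, which compresses dim signals, 6 of the 22 reached it, against 195 of the 18114. The 6 were Hoxa2, Hoxb2, Hoxb6, Hoxb7, Hoxb9 and Hoxc9. In RNA from whole cultures, fewer cells of a kind and less RNA per cell cannot be told apart.

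**Figure D2:**
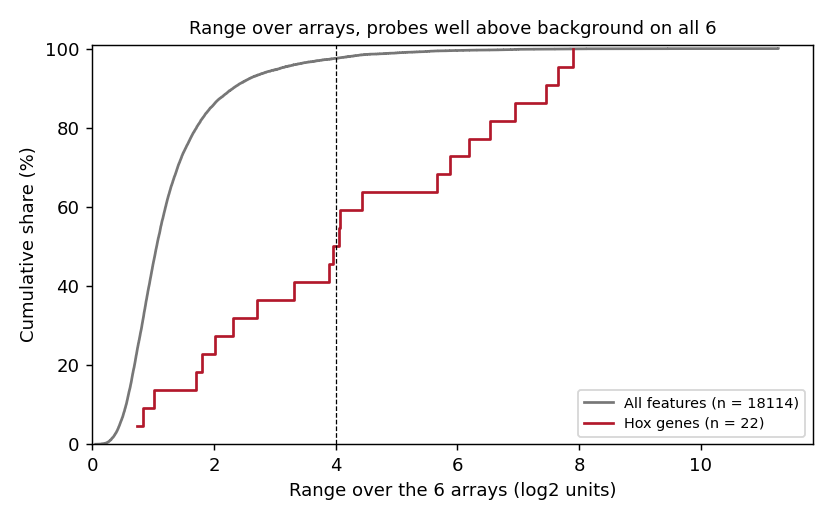
Cumulative share of features (y axis, percent) against the range of the log2 signal over the 6 arrays (x axis), for the 22 Hox genes and all 18114 features well above background on every array. At 4 log2 units (dashed line) 50% of the Hox genes lie beyond it, against 2.46% of features.

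The groups did not sort the arrays by their Hox levels. Over the 27 kept genes, the SD of the log2 difference between 2 arrays was 1.32 for wild-type array 2 and knockout array 1, the lowest of any pair other than wild-type arrays 2 and 3 (0.14). It was 3.07 between wild-type arrays 1 and 2, and 3.90 between knockout arrays 1 and 2, the highest of all pairs. Knockout minus wild type had opposite signs on the 2 slides for 22 of 27 Hox genes, against 39.4% of features. Wild-type array 1 and knockout array 1 shared slide 1, and the other 4 arrays were on slide 2. With 1 array of each group on slide 1, the slide and these arrays cannot be told apart.

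**Figure D3:**
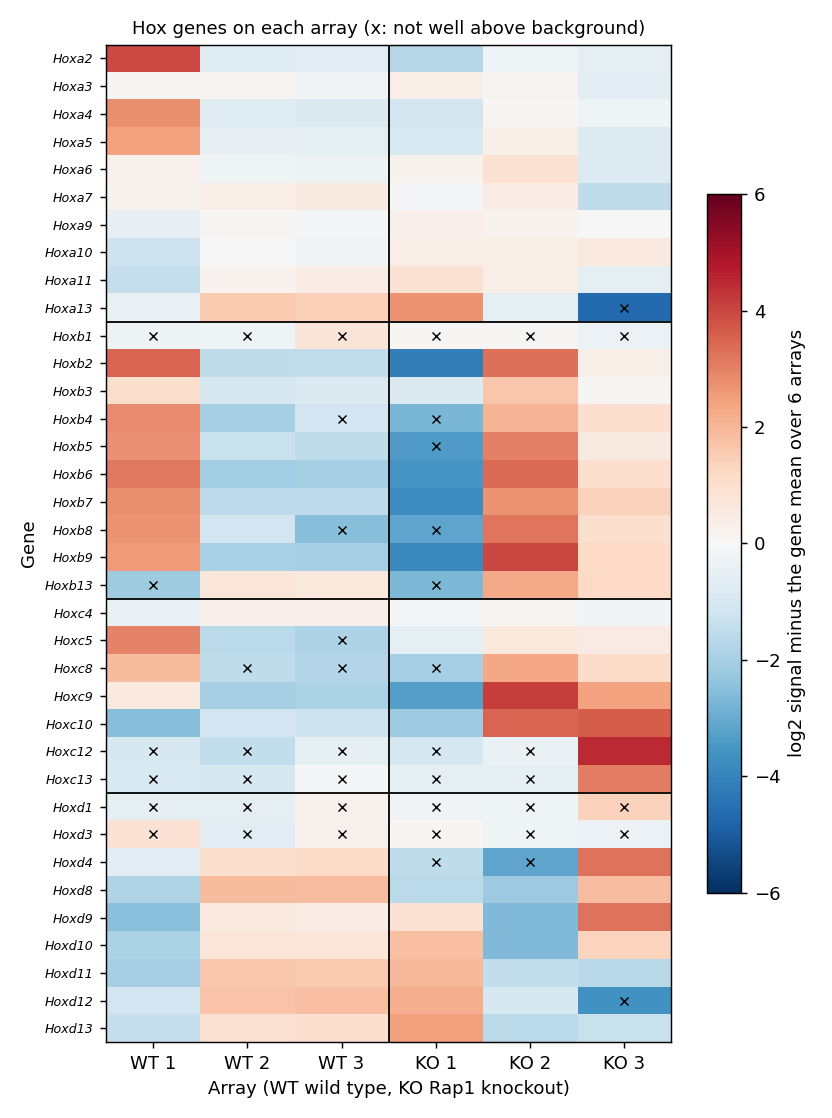
Log2 signal of 36 Hox genes (rows, by cluster and paralogue number) on the 6 arrays (columns), each minus the gene's mean over the arrays. Crosses mark values not well above background. The 6 kept Hox B rows are high on wild-type array 1 and knockout array 2 and low on knockout array 1. Hoxb13 shares this on knockout arrays 1 and 2 but not on wild-type array 1.

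The kept Hox B genes shared much of 1 order of arrays. Hoxb9, a posterior trunk gene, read 2.40, −2.10 and −2.13 on wild-type arrays 1, 2 and 3 and −4.03, 3.87 and 1.05 on knockout arrays 1, 2 and 3. That is a span of 239-fold, with the highest and the lowest array both in the knockout group. Hoxb2, a hindbrain gene that takes part in segment identity, read 2.52, −2.53 and −2.48 in wild type and −5.14, 2.28 and −0.63 in knockout. Hoxb6 read 2.49, −2.75 and −2.65 in wild type and −4.22, 2.74 and 0.34 in knockout. Hoxb7 spanned 93.1-fold, from wild-type array 1 down to knockout array 1. Hoxb5 read −0.33 on knockout array 2, its highest, and was not well above background on knockout array 1. Of the 6 kept Hox B genes, 5 were lowest on knockout array 1, and all 6 were highest on wild-type array 1 (2 genes) or knockout array 2 (4 genes). The exception at the low end was Hoxb3, which read −1.45, −3.54 and −3.37 in wild type and −3.39, −0.82 and −2.46 in knockout. That exception depended on the probe. The other Hoxb3 probe, well above background on all 6 arrays, was lowest on knockout array 1 at −6.56. It read 0.21 on wild-type array 1, its highest, and had a range of 6.76 log2 units.

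The group means of the B cluster hid these spans. The log2 differences ran from −0.33 for Hoxb2 (SE 2.12, limma adjusted p = 0.953) to 0.91 for Hoxb9 (SE 2.14, limma adjusted p = 0.862). Hoxb3 had the smallest p of the cluster, with 0.57 (SE 0.80, limma adjusted p = 0.759). For Hoxb9 the difference was −6.43 on slide 1 and 4.57 on slide 2. The cluster's median difference was −6.49 on slide 1 and 3.47 on slide 2.

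The other Hox B members did not pass the filter. Hoxb4 was well above background on 2 arrays of each group and Hoxb8 likewise. Hoxb8 read −3.23 on wild-type array 1 and −2.74 and −4.99 on knockout arrays 2 and 3. Hoxb13, the last gene of the cluster and set well apart from the rest, followed it in part. It was highest on knockout array 2, at −4.14, and lowest on knockout array 1, at −9.13. Wild-type array 1, high for the kept genes, read −8.58. Neither of the latter 2 arrays was well above background. Hoxb1, a marker of one hindbrain segment, was not well above background on any array.

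In the A cluster the widest ranges were those of Hoxa13, Hoxa2, Hoxa4 and Hoxa5. Hoxa2, the selector of second-arch identity in neural crest, read 0.33, −4.37 and −4.31 on wild-type arrays and −5.34, −3.87 and −4.18 on knockout arrays. Wild-type array 1 stood 50.6-fold above the lowest array, and the other 5 arrays lay between −5.34 and −3.87. Hoxa4 read 0.40, −3.15 and −3.27 in wild type and −3.49, −2.28 and −2.67 in knockout. Hoxa5, needed for the lung and the cervical spine, read 0.88, −2.04 and −2.07 in wild type and −2.43, −1.19 and −2.34 in knockout. All 3 genes were highest on wild-type array 1 and lowest on knockout array 1, and their groups overlapped.

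For Hoxa3 the answer depended on the probe. The probe of highest signal had a range of 1.02, while its other probe had a range of 4.01 and read −1.11 on wild-type array 1 against −5.12 to −3.50 on the other arrays. The log2 difference was −0.03 with the first and −1.16 with the second. Hoxa6 to Hoxa11 spanned less: their ranges over the 6 arrays ran from 0.83 for Hoxa9 to 2.32 for Hoxa11. Within them, Hoxa7 read lowest on knockout array 3, at 1.14 against 2.60 to 3.17 on the other 5.

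Hoxa10, which patterns the lumbar spine, the uterus and the upper leg, was the single Hox gene with separated groups. It read −0.11, 1.14 and 0.95 in wild type and 1.52, 1.49 and 1.69 in knockout. Every knockout array lay above every wild-type array, by 0.35 at the nearest. The log2 difference was 0.91 (SE 0.36), 1.64 on slide 1 and 0.55 on slide 2, with a limma adjusted p of 0.486 that ran from 0.226 to 0.944 over its alternatives. Hoxa13, the gene of the limb tip and the hindgut end, read −5.21, −3.17 and −3.32 in wild type and −2.06, −5.33 and −9.40 in knockout. Knockout array 1 was the highest and knockout array 3, not well above background, the lowest of the 6. The log2 difference was −1.70 (SE 1.73, limma adjusted p = 0.667), and it turned to 0.21 without knockout array 3. After normexp correction with quantile normalisation it was −0.16.

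In the C cluster 3 of the 4 kept genes, Hoxc5, Hoxc9 and Hoxc10, had a range of at least 4 log2 units. Hoxc10, a posterior gene of the lumbar region and hindlimb, read −6.17, −4.75 and −4.86 in wild type and −5.80, −0.14 and 0.02 in knockout. Knockout arrays 2 and 3 stood far above all others, and knockout array 1 lay among the wild types. Its log2 difference, 3.29 (SE 1.53, limma adjusted p = 0.497), was the highest of the 27. The 2 slides gave 0.37 and 4.75 in turn, and leaving out knockout array 1 gave 5.20. On slide 2 alone, where the wild type is the near-alike arrays 2 and 3, limma called it (adjusted p = 0.0201), and with these arrays averaged the limma adjusted p was 0.936. Its second probe was well above background on knockout arrays 2 and 3 only.

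Hoxc9, a thoracic gene, read 1.27, −1.28 and −1.19 in wild type and −2.59, 4.87 and 3.11 in knockout. It was highest on knockout array 2 and lowest on knockout array 1, so the groups overlapped. The log2 difference was 2.19 (SE 1.87, limma adjusted p = 0.618), −3.86 on slide 1 and 5.22 on slide 2. Hoxc5 was highest on wild-type array 1, at −2.42 against −7.26 to −4.76 on the others. Hoxc4 had the narrowest range of the 27, 0.73, with levels from −3.13 to −2.40. Hoxc12 read −3.28 and Hoxc13 −5.05 on knockout array 3. Both were not well above background on the other 5 arrays, so neither passed the filter, and Hoxc8 did not pass it either. For Hoxc12 the knockout mean lay 1.11-fold above the floor set for wild type, which was not tested. That mean includes the dim readings of knockout arrays 1 and 2, so the fold is not a sure bound.

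**Figure D4:**
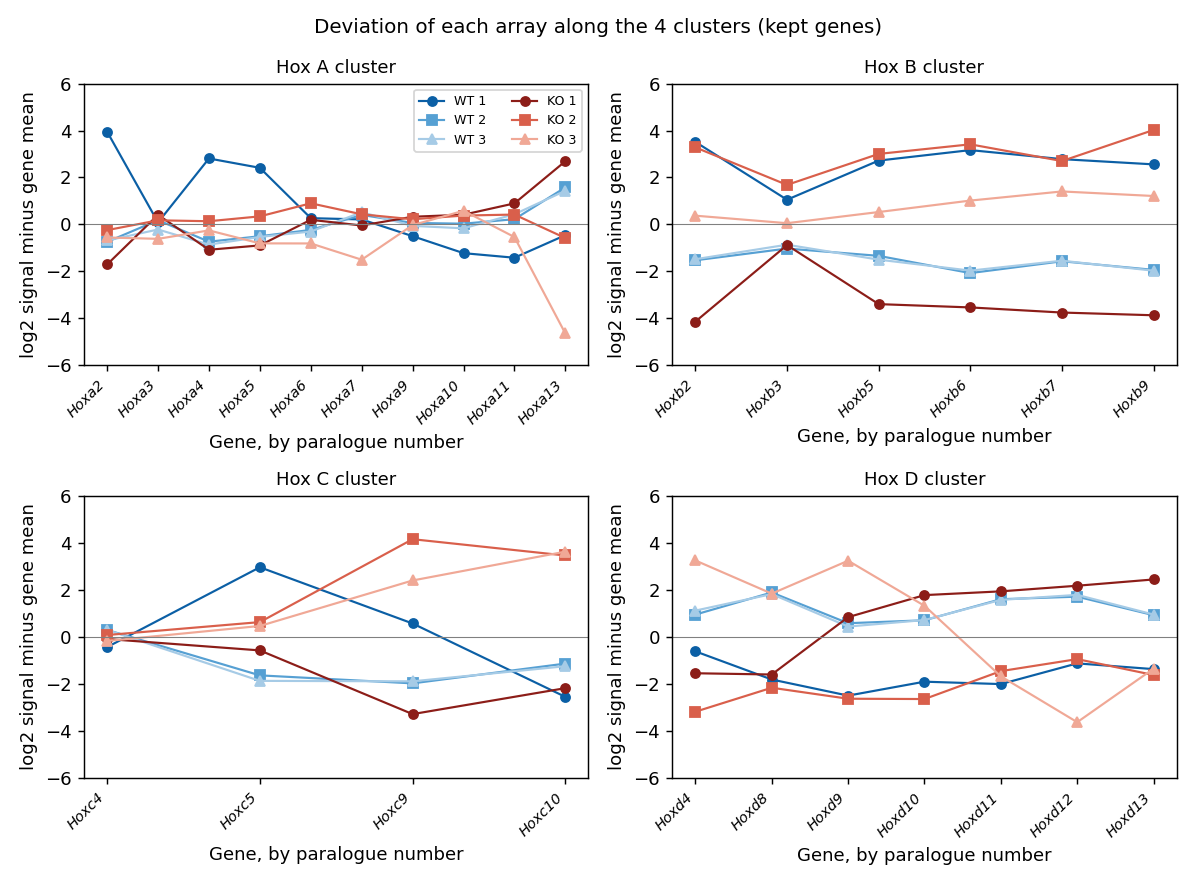
Log2 signal minus the gene's mean over the 6 arrays (y axis) along each cluster by paralogue number (x axis), for the 27 kept Hox genes, with 1 line per array. In Hox B the lines of the arrays stay in nearly the same order, while in Hox D the line of knockout array 3 crosses from high to low between Hoxd9 and Hoxd11.

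The D cluster split into a front and a back part. Hoxd13, the gene of digits and genitalia, read −2.23, 0.07 and 0.10 in wild type and 1.60, −2.48 and −2.21 in knockout. Hoxd11, used in the forearm, read −4.86, −1.24 and −1.27 in wild type and −0.91, −4.31 and −4.53 in knockout. Hoxd12 read −6.35, −3.51 and −3.43 in wild type and −3.04, −6.17 and −8.86 in knockout, the last not well above background. These 3 genes were highest on knockout array 1, followed by wild-type arrays 2 and 3, and low on the remaining 3 arrays.

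Hoxd9 read −5.51, −2.42 and −2.57 in wild type and −2.16, −5.64 and 0.24 in knockout, so knockout array 3 was highest there. Hoxd8 read −4.95, −1.24 and −1.31 in wild type and −4.73, −5.30 and −1.29 in knockout, with 3 arrays near the upper level and 3 near the lower. Hoxd4 read −6.24, −4.67 and −4.50 in wild type and −7.17, −8.81 and −2.37 in knockout, where 1 of 3 arrays was well above background. Hoxd10 was highest on knockout array 1 at 1.23 and lowest on knockout array 2 at −3.20. Hoxd1 and Hoxd3 were not well above background on any array.

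None of the 7 kept Hox D genes had separated groups. The smallest p was that of Hoxd12, which differed by −1.59 (SE 1.51, limma adjusted p = 0.648), or by 3.31 on slide 1 and −4.05 on slide 2, and by −0.23 after normexp correction with quantile normalisation. Hoxd8 differed by −1.28 (SE 1.37), Hoxd4 by −0.98 (SE 1.57) and Hoxd9 by 0.98 (SE 1.54). For Hoxd4 the sign depended on the background step, with 0.16 after normexp correction and quantile normalisation. The median log2 difference was −0.39 in cluster A, 0.40 in B, 1.27 in C and −0.79 in D. These signs held under the normexp, quantile and median scalings and in the deposited value table, with A at −0.05 and D at −0.23 after normexp. By slide they did not hold: slides 1 and 2 gave 0.13 and 0.19 for A, −1.60 and 3.53 for C, and 3.35 and −2.02 for D.

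Some Hox neighbours did not share these spans. Of 23 genes listed as flanking the clusters, 19 were kept and 2 of them had a range of at least 4 log2 units. Their median difference was 0.30 and 0 passed, with separated groups higher in knockout for 5 and lower for 0, against 11.3% and 5.88% of features. Snf8, a subunit of an endosomal sorting complex encoded beyond the B cluster, had the smallest p, with 0.91 (SE 0.30, limma adjusted p = 0.475). Nfe2, a blood transcription factor near the C cluster, differed by 2.21 (SE 0.94, limma adjusted p = 0.489). It was not well above background on wild-type array 3. Its difference was −0.46 on slide 1, 3.54 on slide 2 and 0.94 after normexp correction with quantile normalisation. Evx2, the even-skipped homologue beside Hoxd13, read −6.56, −2.19 and −3.53 in wild type and −2.57, −3.69 and −4.73 in knockout, and was lowest on wild-type array 1.

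Partners and regulators of Hox genes passed in neither direction. All 9 listed cofactors of the Pbx, Meis and Pknox families, which form complexes with Hox proteins on DNA, were kept, with a median difference of 0.41 and 3 higher on every knockout array, against 11.3% of features. Meis3 read −2.28, −3.02 and −2.87 in wild type and −1.62, −1.30 and −1.16 in knockout (log2 difference 1.36, SE 0.28, limma adjusted p = 0.302). Pknox2 differed by 0.65 (SE 0.22, limma adjusted p = 0.475). None of the 9 had a range of 4 log2 units.

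Polycomb proteins silence Hox genes outside their domains, and Trithorax proteins keep them active. Of 32 Polycomb subunits 31 were kept, 0 passed, and 5 were higher and 2 lower on every knockout array, against 11.3% and 5.88% of features. Cbx7 differed by 0.93 (SE 0.29, limma adjusted p = 0.472) and Cbx8 by 0.69 (SE 0.25, limma adjusted p = 0.475), both chromodomain subunits. The list's median was 0.14, which turned to −0.03 after quantile normalisation. Of 20 Trithorax and activating factors 16 were kept and 0 passed, with a median of 0.24. Smarca4, a chromatin remodelling ATPase, had the smallest p at 0.64 (SE 0.26, limma adjusted p = 0.486). Both lists had 0 members with a range of 4 log2 units. Of 10 other regulators 6 were kept and 0 passed. Gdf11, a ligand that sets the trunk-to-tail transition, differed by 0.83 (SE 0.41) and Gmnn by 0.42 (SE 0.23). Cdx1, Cdx2 and Cdx4, the caudal activators of posterior Hox genes, were not well above background on any array.

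Retinoic acid switches on the front Hox genes, and 16 of 18 genes of its pathway were kept, with 0 past the threshold. Of the 16, 6 had a range of at least 4 log2 units, against 4.29% of kept features. Cyp26b1, which degrades retinoic acid, had the smallest p: it read 0.53, −0.87 and −0.79 in wild type and −3.54, −2.91 and −3.69 in knockout. Every knockout array lay below every wild-type array (log2 difference −3.00, SE 0.44, limma adjusted p = 0.162, and 0.517 with wild-type arrays 2 and 3 averaged). Rxra, a retinoid X receptor, differed by 0.62 (SE 0.31, limma adjusted p = 0.503). Aldh1a2, which makes retinoic acid, read 3.30 on wild-type array 1 and −7.49 to −4.54 on the other 5. Aldh1a1 likewise read 2.28 there against −5.62 to −3.75 elsewhere. Hoxa2, Hoxa4 and Hoxa5 were highest on this array too, and a link between them was not tested.

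Positional factors outside the Hox clusters were read in the same way. Of 44 listed, 31 were kept and 0 passed. Among 22 well above background on all 6 arrays, 4 (Tbx5, Pitx1, Pax9 and Foxd1) had a range of at least 4 log2 units, against 2.46% of such features, and the median range was 2.97. En1, a marker of ventral limb skin, had the smallest p (log2 difference −2.97, SE 0.64, limma adjusted p = 0.321). It was well above background on 1 of 3 knockout arrays. After normexp correction with quantile normalisation it differed by −0.39. Tbx18 followed at 1.65 (SE 0.41, limma adjusted p = 0.373), higher on every knockout array.

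The limb-type factors, named after their values were seen, set single arrays apart. Pitx1, a hindlimb factor, read −2.25, 0.20 and 0.17 in wild type and −0.91, −2.54 and 4.55 in knockout. Tbx4, its partner in the hindlimb, was well above background on knockout array 3 only, at −5.36. Tbx5, the forelimb factor, read −0.06, 1.13 and 0.95 in wild type and 2.70, −1.13 and −4.23 in knockout. So knockout array 3 had the highest Pitx1 and the lowest Tbx5, and it was also the array with signal for Hoxc12 and Hoxc13. Knockout array 1 had the highest Tbx5, Hoxa13 and Hoxd13. Tcf21, a factor of visceral mesenchyme, was well above background on wild-type array 1 only, at 1.11 against −9.55 to −8.54 elsewhere. Whether the arrays differ in the tissue their cells came from was not tested.

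**Figure D5:**
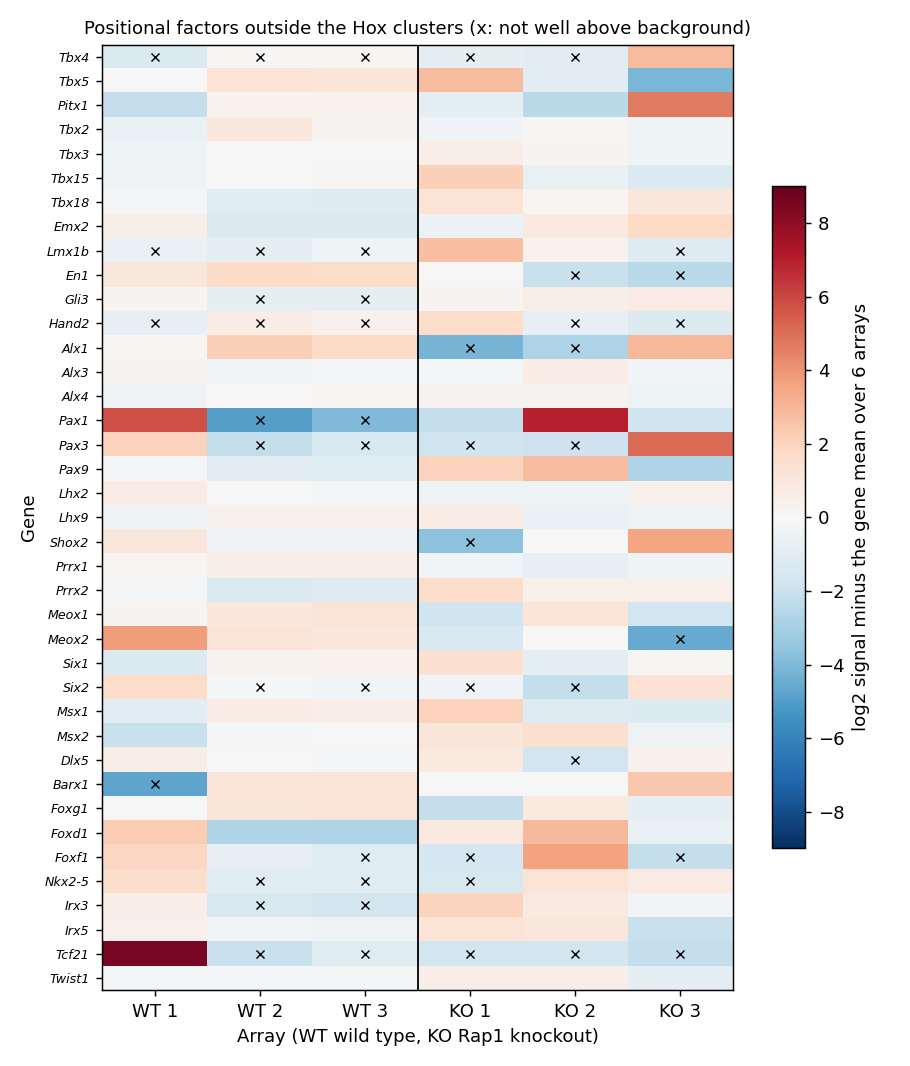
Log2 signal of positional transcription factors outside the Hox clusters (rows) on the 6 arrays (columns), each minus the gene's mean over the arrays, for genes well above background on at least 1 array. Crosses mark values not well above background. Tcf21 stands out on wild-type array 1, and Pitx1 and Tbx4 on knockout array 3.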

How the data were processed

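Per the file headers, the deposited intensity values were read out by version 10.5.1.1 of Agilent's Feature Extraction: the background-corrected signal of each spot, its median signal and local background, and flags. Log2 values of the same 6 arrays stand in the deposited value table, and the submitters' processing notes name limma. Its steps are not given in the sources used here. Its knockout columns 1, 2 and 3 matched scanner files 2, 3 and 1 (r = 0.99999 after normexp and quantile normalisation, against 0.978 to 0.984 for the file each label names). Their column medians were 6.86 to 6.87. The groups are unaffected, and array numbers here are those of the scanner files.

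Control spots (1639 of 45018) and 74 to 120 outlier spots per array were left out, no spot was saturated, and spots of a probe were averaged into 41174 probes. Names came from RefSeq accessions matched without versions to a table of assembly GRCm38.p6 (23374 probes matched, 17800 not). The files name build mm8, so no coordinates of probes or genes are given. Those of the promoter stretches are on GRCm38.p6. A feature was represented by its probe of highest mean and kept if 1 group or both had it well above background on each of their arrays. Knockout was compared with wild type with lmFit and eBayes of limma 3.58.1 (R 4.3.3), a 2-sided test without a block. The threshold was a Benjamini-Hochberg adjusted p of 0.05 over all features. The fit was also run on simulated arrays drawn independently of each other. Those lack the near-alike wild-type pair and the slides, so they cannot show how the fit behaves on these arrays. Where a probe was dim on every array of 1 group and on no array of the other, the fold is a bound ("at least"). The brighter group's mean is divided by the dim group's mean floor, and an array's floor is its dimmest well-measured probe or, if higher, the probe itself.

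The members and gene lists were chosen with earlier results of these data known. Values on every array are given for members past the threshold or, where none passed, for the 5 highest and 5 lowest differences, separated members of at least 2-fold, and each cluster's smallest p. In the other lists the 2 members of smallest p are named. Some genes that this rule names are not reported here. Any further gene was picked with its values in view. By replicate number the arrays' deviations correlated at 0.01, 0.05 and −0.08, which does not pair them. The mean spot signal is not used here, so normexp ran on the median signal with an offset of 50. Alternatives were other scalings, filters, probe rules, variance models and blocks, the value table, averaged wild-type arrays 2 and 3, single slides and each array left out. The range over features well above background on all 6 arrays was added after seeing the data. The number of arrays limits the precision.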

Additional observations from a re-analysis of the deposited data

How the results depend on the processing

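The count of Hox genes past the threshold was 0 under the alternatives run with a test, other than slide 2 alone, where limma called 4 of 27 (Hoxc5 2.31, Hoxc10 4.75, Hoxd11 −3.16 and Hoxd13 −2.43) and 301 of all features. There the wild type consisted of the near-alike arrays 2 and 3. The Hox median of 0.09 ran from −0.25 to 0.26 with each array left out and moved by less than the SD between replicates of the array medians, 0.58, in every alternative. The count of Hox genes with separated groups, 1, was 17 on slide 2 alone, where 57.8% of all features were separated, and 1 to 5 with an array left out, where 18.8% to 46.0% were. The count of all features past the threshold, 2, was 0 with probes above background on all 6 arrays, 4 with the mean of probes, 0 with the replicate block, 0 with the slide block and 0 with wild-type arrays 2 and 3 averaged. It ran from 0 to 189 with each array left out, the 189 without wild-type array 1. Terf2ip missed the threshold at −6.63 under either block (replicate or slide) and at −6.62 when the near-alike wild-type arrays were averaged. It ran from −6.85 to −6.27 with an array left out, where 4 of 6 fits missed the threshold (limma adjusted p from 0.0567 to 0.0758), and was −2.62 after normexp. The replicate block changed no Hox call.

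Signs turned on slide 1 alone for Hoxa13 (3.15), Hoxb3 (−1.93), Hoxb9 (−6.43), Hoxc9 (−3.86), Hoxd8 (0.21) and Hoxd12 (3.31), and on slide 2 alone for Hoxa2 (0.31) and Hoxd9 (−0.21). Hoxd4 turned to 0.16 with normexp and in the value table. With an array left out, Hoxa13 ran from −3.47 to 0.21, Hoxb3 from −0.13 to 1.23, Hoxb9 from −0.88 to 3.07, Hoxd4 from −2.86 to 0.37 and Hoxd9 from −0.40 to 2.54, and these changed sign. The sign held but the size moved for Hoxa2 (−2.47 to −0.12), Hoxa10 (0.53 to 1.15), Hoxc9 (0.66 to 4.39), Hoxc10 (2.29 to 5.20), Hoxd8 (−2.52 to −0.51) and Hoxd12 (−3.08 to −0.18). The cause was not tested. Median scaling moved the median of all features by 0.11 and dropping the filter by −0.15. Signal over background limits the Hox genes that were dim on some arrays.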
